A study of Mus musculus with 10 samples.

Results

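The genes described here encode the nuclear-encoded parts of the mitochondrial respiratory chain: subunits of complexes I to V, cytochrome c and the named assembly factors of complex I. They were taken by gene symbol (beginning with Nduf, Uqcr, Cox4 to Cox8 or Atp5, or equal to Sdha, Sdhb, Sdhc, Sdhd, Cycs or Cyc1) from probe sets that carry 1 symbol, and each gene is represented by its brightest probe set. This gave 92 of 18193 genes on the array, chosen among 184 of 34945 probe sets with 1 symbol. They comprised 34 subunits and 8 assembly factors of complex I, 4 subunits of complex II, 9 genes of complex III, cytochrome c (Cycs), 19 genes of complex IV and 17 of complex V. Of the complex IV genes, 8 are forms known mainly from particular tissues or conditions (Cox4i2, Cox6a2, Cox6b2, Cox7a1, Cox7b2, Cox8b, Cox8c and Ndufa4l2). Another 10 probe sets that match several symbols were left out, and Ndufa11 and Ndufs6 were measured only there. No probe set of 1 symbol began with mt-, so the subunits encoded in mitochondrial DNA were not analysed here.

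The cells, CJ9, were a mouse embryonic stem cell (ESC) line derived from strain 129svj and carrying no label of other genetic change. All groups were infected with lentivirus for 48 h with polybrene at 10 µg/mL, then moved to ES cell medium that held LIF and 4 µg/mL puromycin and cultured for 48 h after infection. The virus was Empty Vector, Wapal shRNA1 or shRNA2, which target the factor that unloads cohesin from DNA, or Smc3 shRNA1 or shRNA2, which target a structural part of the ring itself. There were 2 arrays for each of the 5 groups (Affymetrix Mouse Genome 430 2.0), labelled as biological replicates without a statement that they came from separate infections, so that p-values reflect the scatter among these samples, which may be technical.

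Electrons from NADH enter the chain at complex I and those from succinate at complex II, pass through complex III and cytochrome c to complex IV, which reduces oxygen, and the proton gradient built on the way drives ATP synthase, complex V. Most subunits are encoded in the nucleus, and many of their promoters carry sites for NRF1, for GABPA and other ETS factors, or for YY1. Several complex IV subunits exist as a widely expressed form and a form of muscle, testis or low oxygen. Pluripotent stem cells make much of their ATP by glycolysis while keeping a working respiratory chain.

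The promoters of 75 of the 92 genes were found in a RefSeq table of windows from 250 bases before to 50 bases after each transcription start (GRCm38.p6), and both strands were searched for the letters of 3 motifs. The NRF1 motif (GCGCNTGCG) was present in 25 of them, 33.3%, against 7.12% of 27025 genes of the table. The GABPA/ETS motif (CCGGAAG) was present in 19, 25.3%, against 9.93%, and the YY1 motif (AAGATGGC) in 10, 13.3%, against 3.19%. At least 1 of the 3 was found for 45 of 75 genes, 60.0%, against 17.9% of all genes, and for 0 of the 4 tissue-restricted forms with a window. These are counts of letters, not of occupied sites. The 4 sequences below give the 250 bases before the start of 4 genes named in the results, with matches in capitals. Ndufa5 has an NRF1 match 25 bases before its start, and the widely expressed Cox6b1 an ETS match 28 bases before it. These letters are not in the windows of Cox7a1 and of Cox6b2, the form known from testis. Widely expressed genes of complex IV were mixed as well. Cox6a1 and Cox8a had a match, while Cox5a, Cox5b, Cox7a2, Cox7a2l, Cox7c and Ndufa4 had none.
Ndufa5, chr6:24527691-24527940, minus strand: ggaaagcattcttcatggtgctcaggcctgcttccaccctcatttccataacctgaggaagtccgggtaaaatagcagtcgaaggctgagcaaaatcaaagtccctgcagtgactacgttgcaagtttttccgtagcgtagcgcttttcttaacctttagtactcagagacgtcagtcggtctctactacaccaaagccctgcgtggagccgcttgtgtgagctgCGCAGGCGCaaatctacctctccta
Cox7a1, chr7:30183921-30184170, plus strand: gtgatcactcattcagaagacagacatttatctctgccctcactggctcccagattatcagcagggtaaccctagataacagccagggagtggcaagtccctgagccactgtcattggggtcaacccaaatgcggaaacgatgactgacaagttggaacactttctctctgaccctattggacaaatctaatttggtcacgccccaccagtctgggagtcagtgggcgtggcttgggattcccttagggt
Cox6b1, chr7:30626115-30626364, minus strand: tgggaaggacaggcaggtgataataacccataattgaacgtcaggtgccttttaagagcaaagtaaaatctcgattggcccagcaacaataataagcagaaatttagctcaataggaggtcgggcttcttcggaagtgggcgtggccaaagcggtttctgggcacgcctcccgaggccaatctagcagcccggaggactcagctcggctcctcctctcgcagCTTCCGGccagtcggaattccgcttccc
Cox6b2, chr7:4753095-4753344, minus strand: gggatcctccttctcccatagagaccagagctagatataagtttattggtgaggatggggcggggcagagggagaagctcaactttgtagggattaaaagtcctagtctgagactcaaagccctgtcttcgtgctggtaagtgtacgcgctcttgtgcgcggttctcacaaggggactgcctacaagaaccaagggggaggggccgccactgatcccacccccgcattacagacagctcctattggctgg

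Values are intensities per probe set, and differences are given in log2 with standard error (SE) or 95% interval. Levels are compared only within a probe set, since intensity depends on the probe. Both targets fell, Wapl (the gene symbol of Wapal) by 81.8% with both Wapal shRNAs and Smc3 by 87.5% with both Smc3 shRNAs. Wapl stood at 929 and 1005 with shRNA1 and at 235 and 217 with shRNA2, against 2500 and 2648 with Empty Vector, and these values follow the GEO labels used here. The 10 pluripotency markers were bright on all arrays (summed intensity 59252 to 73745) and 6 of 7 fibroblast or feeder markers were dim, under a mean log2 of 6. The arrays fell on 2 sides that crossed the groups, one with Empty Vector replicate 1, Wapal shRNA1 and Smc3 shRNA2, the other with Empty Vector replicate 2, Wapal shRNA2 and Smc3 shRNA1, and 123 of 45037 probe sets were parted by a log2 gap over 0.3. The sides come from the values, since the labels name no batch. None of the 92 genes was parted by that gap (0 of 92). With any gap 14 of 92 were, 15.2%, of which 11 had their higher values beside Empty Vector replicate 1, against 7.93% of 9689 genes with a mean log2 of 6 or more, and these gaps were at most 0.11. Values within a side are given below where they bear on a gene. In bulk RNA of this kind, fewer cells of a type and less RNA per cell cannot be told apart.

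The respiratory chain genes were bright and even across the 10 arrays. Their median of the mean log2 intensity was 11.87, and 44 of 92 reached 12, against 2.29% of all genes. The brightest probe set of each class is given with its range over the 10 arrays. These were Cox6a1 in complex IV (15137 to 17820), Uqcrb in complex III (14126 to 16199) and the catalytic subunit Atp5b of complex V (9665 to 10963). In the other classes they were the accessory subunit Ndufb11 of complex I (6168 to 7529), Cycs (4249 to 6135), the iron-sulfur subunit Sdhb of complex II (2614 to 3421) and the assembly factor Ndufaf8 (1390 to 1919). The range from the lowest to the highest array had a median of 0.33 in log2, against 0.59 for the genes with a mean log2 of 6 or more, and it was under 1 for 88 of 92 genes. The standard deviation of the replicate difference over these genes was 0.08 to 0.11 in the shRNA groups and 0.14 for Empty Vector. The largest differences between the Empty Vector arrays (replicate 2 minus replicate 1) were 0.46 for Cox6b2, -0.40 for the assembly factor Ndufaf4 and 0.36 for Ndufa4l2.

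The first comparison, of Wapal-depleted cells with Empty Vector, asks what loss of Wapal does to transcripts under self-renewal conditions. None of the 92 genes rose (0 by limma at an adjusted p under 0.05, background 2.63% of all genes) and 1 fell (background 4.93%). At an unadjusted p under 0.05, 5 were higher and 5 lower. Their median difference was 0.01, as was that of all genes (0.01). For 88 of 92 genes, 95.7%, the 95% interval lay within a 1.5-fold change in either direction, against 82.7% of all genes and 80.0% of those with a mean log2 of 6 or more. The reference genes were not matched to the brighter 92 genes for intensity, here, for the range above and for the shares below. What part brightness has in these values was not tested. When the assembly factors and the 8 tissue-restricted forms were set aside, the intervals of all 76 remaining genes lay within 1.5-fold.

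The gene that fell was Cox7a1, the form of complex IV subunit VIIa known from heart and skeletal muscle. Its intensity was 451 and 514 with Empty Vector, 334 and 278 with Wapal shRNA1, then 318 and 355 with Wapal shRNA2. All 4 Wapal shRNA arrays lay under both Empty Vector arrays. The difference was -0.59 ± 0.12 (SE, n = 4 against 2, 1.51-fold, limma adjusted p = 0.0291), with -0.57 for shRNA1 and -0.61 for shRNA2 within the sides. This call ended without any one of the 6 arrays, with values of -0.68 without Empty Vector replicate 1, -0.50 without Empty Vector replicate 2, -0.66 and -0.52 without Wapal shRNA1 replicate 1 and 2, and -0.55 and -0.63 without Wapal shRNA2 replicate 1 and 2 (limma adjusted p from 0.053 to 0.093).

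In Smc3-depleted cells 2 of the 92 genes rose (background 6.08%) and 4 fell (background 3.94%), with a median difference of -0.01 (all genes 0.01). The intervals of 86 genes, 93.5%, lay within 1.5-fold, against 83.9% of all genes. Both comparisons use the same Empty Vector arrays. The lowest difference was again that of Cox7a1, with 291 and 258 under Smc3 shRNA1 and 242 and 282 under Smc3 shRNA2. All 4 lay under the Empty Vector arrays, and the difference was -0.85 ± 0.11 (SE, n = 4 against 2, 1.80-fold, limma adjusted p = 0.00372). Within the sides it was -0.91 for shRNA1 and -0.79 for shRNA2, and the call held under all 13 alternatives tried (-0.94 to -0.75). Wapal and Smc3 depletion did not differ past the threshold for Cox7a1 (0.26, 95% interval 0.05 to 0.47, adjusted p = 0.0851).

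**Figure D1:**
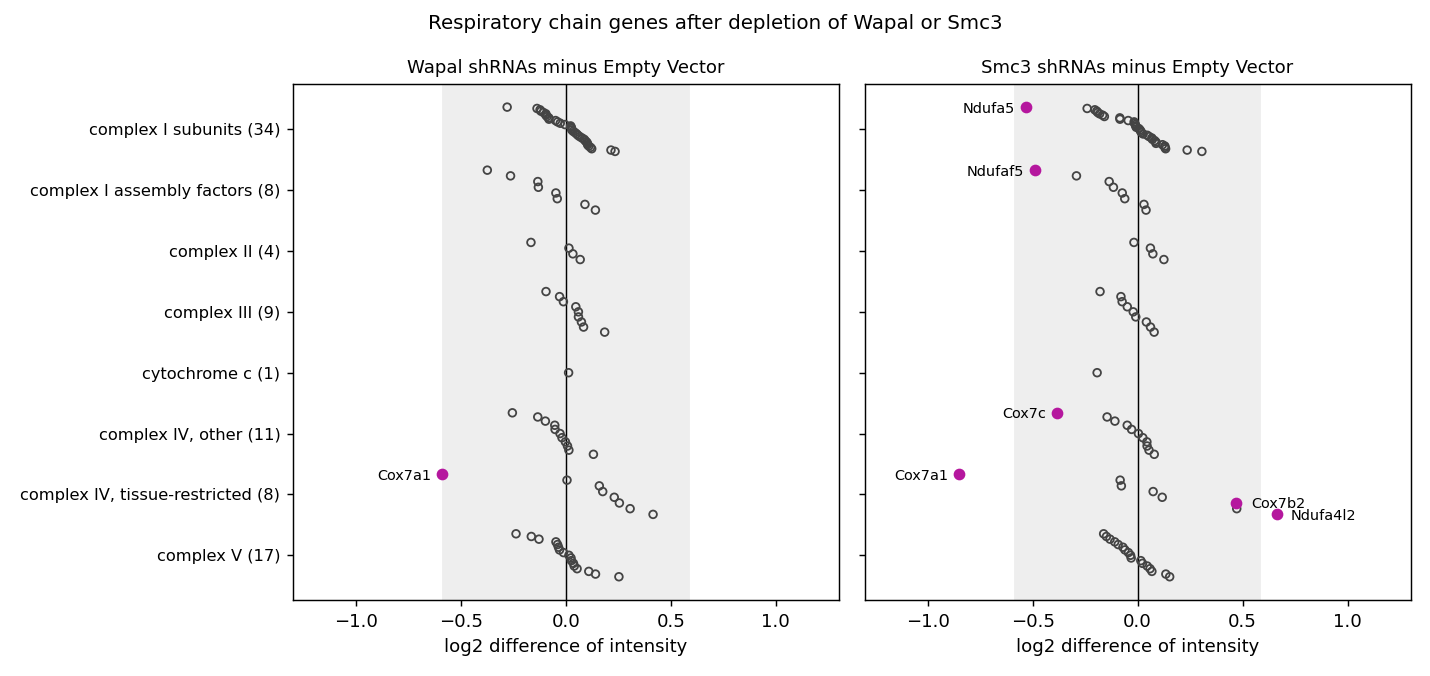
Log2 difference of intensity from Empty Vector (x axis) of each of the 92 genes (points), by complex with the number of genes in brackets, for both Wapal shRNAs (left) and both Smc3 shRNAs (right). Filled points passed a limma adjusted p under 0.05, and the grey band marks 1.5-fold. Most genes lie close to 0, and Cox7a1 is the lowest in both panels (-0.59 and -0.85).

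In complex I, Ndufa5, an accessory subunit of the peripheral arm, fell with Smc3 depletion, and both of its probe sets passed. On the brighter one the intensity was 1758 and 1506 with Empty Vector, 911 and 836 with Smc3 shRNA1, then 1380 and 1520 with Smc3 shRNA2. The shRNA1 arrays were the lowest of all 10, and the shRNA2 arrays reached into the Empty Vector range. The difference was -0.53 ± 0.11 (SE, n = 4 against 2, limma adjusted p = 0.0197) and -0.51 on the other probe set (adjusted p = 0.0203). The shRNAs differed by -0.73 ± 0.12 (limma adjusted p = 0.00883), and within the sides the values were -0.79 for shRNA1 and -0.28 for shRNA2. The fall of Ndufa5 no longer passed without Empty Vector replicate 1 (-0.42, adjusted p = 0.112), without Smc3 shRNA1 replicate 2 (-0.50), or without Smc3 shRNA2 replicate 1 (-0.50) or 2 (-0.57). With Wapal depletion Ndufa5 stood at -0.10 (95% interval -0.32 to 0.13).

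Ndufaf5, an assembly factor of complex I, had 278 and 281 with Empty Vector, 220 and 209 with Smc3 shRNA1, then 188 and 183 with Smc3 shRNA2. All 4 depleted arrays lay lower, and the difference was -0.49 ± 0.09 (SE, n = 4 against 2, limma adjusted p = 0.0131). This call was lost by a narrow margin without Empty Vector replicate 1 (-0.50, adjusted p = 0.054), Smc3 shRNA1 replicate 2 (-0.47) or Smc3 shRNA2 replicate 2 (-0.48). Cox7c, a complex IV subunit present in all tissues, had 199 and 188 with Empty Vector, falling between 146 and 152 on the 4 Smc3 shRNA arrays, a difference of -0.38 ± 0.09 (SE, n = 4 against 2, limma adjusted p = 0.035). That is the brighter of its 2 probe sets with 1 symbol, at a mean log2 of 7.42. The other, at 5.54, gave -0.46 (adjusted p = 0.0709). The Cox7c call ended without each of the 6 arrays in turn, with values from -0.42 without Empty Vector replicate 2 to -0.34 without Empty Vector replicate 1, and -0.40, -0.37, -0.39 and -0.38 without Smc3 shRNA1 replicate 1, 2, Smc3 shRNA2 replicate 1 and 2 (adjusted p 0.054 to 0.154).

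The genes that rose with Smc3 depletion were both tissue-restricted forms. Ndufa4l2, which resembles the complex IV subunit Ndufa4 and is induced by low oxygen in many cells, had 65.4 and 84.0 with Empty Vector, 162 and 146 with Smc3 shRNA1, then 80.4 and 99.1 with Smc3 shRNA2. The shRNA1 arrays were the highest of the 10, and the shRNA2 arrays overlapped Empty Vector. The difference was 0.66 ± 0.13 (SE, n = 4 against 2, limma adjusted p = 0.0223), with 0.87 for shRNA1 and 0.45 for shRNA2 within the sides, and 0.79 ± 0.16 between the shRNAs (limma adjusted p = 0.0172). With Wapal shRNA1 the gene had 72.1 and 82.7 and with Wapal shRNA2 127 and 126, a difference from Empty Vector of 0.42 that did not pass (95% interval 0.13 to 0.70, adjusted p = 0.0899). The rise with Smc3 depletion no longer passed without Empty Vector replicate 1 (0.48, adjusted p = 0.122), Smc3 shRNA1 replicate 1 (0.62) or 2 (0.70), or Smc3 shRNA2 replicate 2 (0.59). Ndufa4 itself differed by -0.15 with Smc3 depletion and 0.01 with Wapal depletion, neither of which passed.

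**Figure D2:**
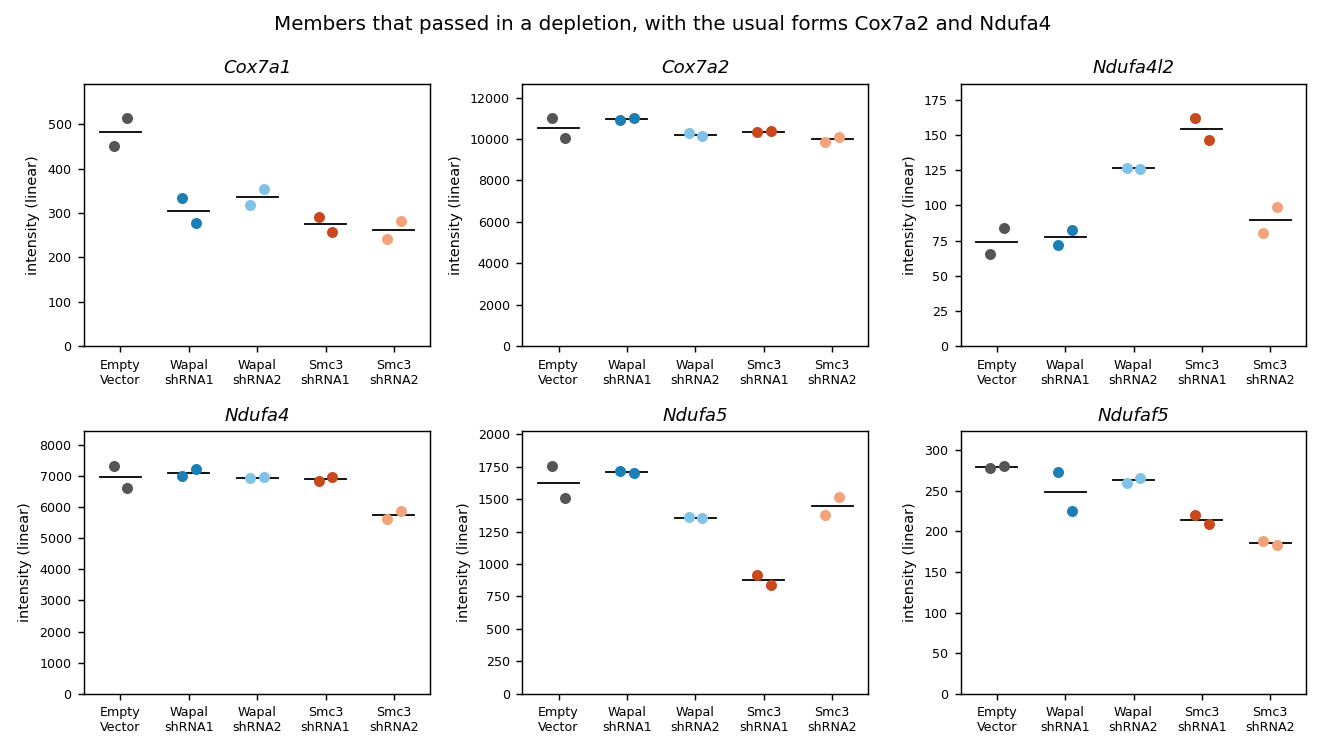
Intensity on a linear axis from 0 (y axis) on each of the 10 arrays (points) in the 5 groups, with a line at the geometric mean of its group. The genes are Cox7a1, Ndufa4l2, Ndufa5 and Ndufaf5, which passed in a depletion, and Cox7a2 and Ndufa4, the widely expressed relatives of Cox7a1 and Ndufa4l2. Cox7c and Cox7b2, which also passed with Smc3 depletion, are not drawn. Cox7a1 lies at 451 and 514 with Empty Vector and at 242 to 355 on the 8 shRNA arrays, while Cox7a2 stays between 9847 and 11018.

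Genes of glycolysis and the low-oxygen response moved along the same sides as Ndufa4l2. Of 24 measured genes of that list, 23 were higher on Empty Vector replicate 2 than on replicate 1, with a median difference of 0.48, and with Smc3 shRNA1 against shRNA2 10 rose (41.7%, all genes 7.87%) and 0 fell (all genes 4.63%), with a median of 0.52 (limma, 0 lower at an unadjusted p under 0.05). Against Empty Vector the median of the list was 0.27 with Wapal depletion and 0.28 with Smc3 depletion. In each, 2 rose (8.33%, all genes 2.63% and 6.08%) and 0 fell (all genes 4.93% and 3.94%). At an unadjusted p under 0.05, 8 were higher and 0 lower in each. At that threshold 27.0% and 25.3% of all genes passed, both directions together. Within the sides the median was between 0.21 and 0.31 for each of the 4 shRNAs. The genes that rose were the mitophagy receptor Bnip3 (1.27 ± 0.28, limma adjusted p = 0.041) and the stress-responsive Ndrg1 (1.18 ± 0.28, adjusted p = 0.0492) with Wapal depletion. With Smc3 depletion they were the lactate exporter Slc16a3 (0.95 ± 0.16, adjusted p = 0.0106) and Pdk1, a kinase that inhibits pyruvate dehydrogenase (0.51 ± 0.12, adjusted p = 0.0398). Of these calls, that of Slc16a3 held without each array and the others were lost without 5 of 6 arrays in turn (adjusted p up to 0.211). Bnip3 and Ndrg1 rested on the Empty Vector arrays, with 0.67 and 0.58 without replicate 1 and 1.88 and 1.79 without replicate 2. What part this has in the value of Ndufa4l2 was not tested.

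Cox7b2, a testis form, rose with Smc3 depletion on a dim probe set, from 17.7 and 16.8 with Empty Vector to between 23.0 and 24.8 on the 4 Smc3 shRNA arrays (0.47 ± 0.09, limma adjusted p = 0.0151). The groups did not overlap, but the values lie where signal and background are hard to part, and the call was lost without any one of the Smc3 shRNA arrays (0.47, 0.48, 0.47 and 0.47, adjusted p 0.052 to 0.058) and in a model of all 10 arrays (adjusted p = 0.0912). The widely expressed Cox7b was not measured by a probe set of 1 symbol.

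The other forms were compared with their widely expressed partners. Cox6b2, known from testis, had 645 and 888 with Empty Vector, 1399 and 1316 with Smc3 shRNA1, then 782 and 845 with Smc3 shRNA2. The shRNA1 arrays stood above all others, and the shRNAs differed by 0.74 ± 0.15 (limma adjusted p = 0.0206), a call that was lost without any one Smc3 array (0.70, 0.78, 0.68 and 0.80, adjusted p 0.086 to 0.143). The mean of both against Empty Vector was 0.47 (95% interval 0.17 to 0.78, adjusted p = 0.0715). Its partner Cox6b1 stayed between 7993 and 9557 on all 10 arrays. Cox8c, another testis form, had 199 and 197 with Empty Vector against 235 to 253 on the 4 Wapal shRNA arrays, without overlap, and did not pass (0.31, 95% interval 0.10 to 0.51, adjusted p = 0.0873). Cox8a differed by -0.05 with Wapal depletion and 0.05 with Smc3 depletion. Cox4i2 (27.1 to 34.5 over the 10 arrays) and Cox8b (28.0 to 51.1), both dim, and Cox6a2 (65.5 to 85.2) passed in no comparison. Their partners Cox4i1 (10121 to 11642) and Cox6a1 did not pass either, nor did the supercomplex factor Cox7a2l (2972 to 3872).

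Markers of the tissues known for these forms were read beside them. Of 6 muscle markers 5 were dim, their summed intensity was 245 to 254 with Empty Vector, 235 to 268 with the Wapal shRNAs and 245 to 303 with the Smc3 shRNAs, and RMA gives every probe set a level above 0. Of these, 1 rose with Smc3 depletion (16.7%, all genes 6.08%) and 0 fell (all genes 3.94%, 1 lower at an unadjusted p under 0.05). It was the dim Myh7 (0.44 ± 0.11, limma adjusted p = 0.0415), a call lost without 5 of 6 arrays in turn. Of 6 germ cell markers 2 were dim, with sums of 673 to 732 with Empty Vector, 698 to 969 with the Wapal shRNAs and 931 to 1397 with the Smc3 shRNAs. The gene that rose there with Smc3 depletion (16.7%, all genes 6.08%) was Cyct, the testis form of cytochrome c, which lies outside the rule used for the 92 genes. It had 255 and 290 with Empty Vector, 421 and 393 with Smc3 shRNA1, then 760 and 910 with Smc3 shRNA2, a difference of 1.10 ± 0.11 (SE, n = 4 against 2, limma adjusted p = 0.00131) that held without each array. The somatic form Cycs had 5571 and 4983 with Empty Vector against 4249 to 5166 with the Smc3 shRNAs and did not pass (-0.19, 95% interval -0.42 to 0.03).

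By complex, the medians stayed near those of Empty Vector. With Wapal depletion they were 0.03 for complex I subunits, 0.02 for complex II, 0.06 for complex III, -0.03 for complex IV without its tissue-restricted forms and 0.01 for complex V. With Smc3 depletion they were 0.01, 0.07, -0.02, 0.00 and -0.03 in the same order. Complex II had array medians of -0.05 and -0.18 for Wapal shRNA1 and 0.07 and 0.09 for Wapal shRNA2. Its median between these shRNAs was -0.29, and 0 of 4 genes passed (limma, 3 lower and 0 higher at an unadjusted p under 0.05). Within the sides its medians were -0.06 for Wapal shRNA1 and 0.06 for Wapal shRNA2, and Empty Vector replicate 2 stood above replicate 1 by a median of 0.06. In complexes II, III and V 0 genes passed in either depletion (limma), and at an unadjusted p under 0.05 there were 1 higher and 1 lower, both in complex V with Wapal depletion. The assembly factors of complex I had medians of -0.09 with either depletion, and 6 of 8 were below 0 in each. With Wapal depletion this median turned to 0.01 when quantile normalization was repeated, and it was -0.15 and -0.03 without Wapal shRNA1 replicate 1 and 2, and -0.05 without Empty Vector replicate 2. With Smc3 depletion it was -0.17 without Empty Vector replicate 2. The tissue-restricted forms had medians of 0.20 with Wapal depletion and 0.10 with Smc3 depletion, and their Empty Vector arrays differed by a median of 0.21. Without Empty Vector replicate 1 these medians were 0.04 and 0.03, without replicate 2 they were 0.29 and 0.16, and with the mean over probe sets that of Smc3 depletion was -0.00. The genes of the membrane c-ring Atp5g1, Atp5g2 and Atp5g3, which carry the same mature protein, differed by -0.05, 0.14 and -0.04 with Wapal depletion and by -0.16, 0.15 and -0.04 with Smc3 depletion, and none passed.

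**Figure D3:**
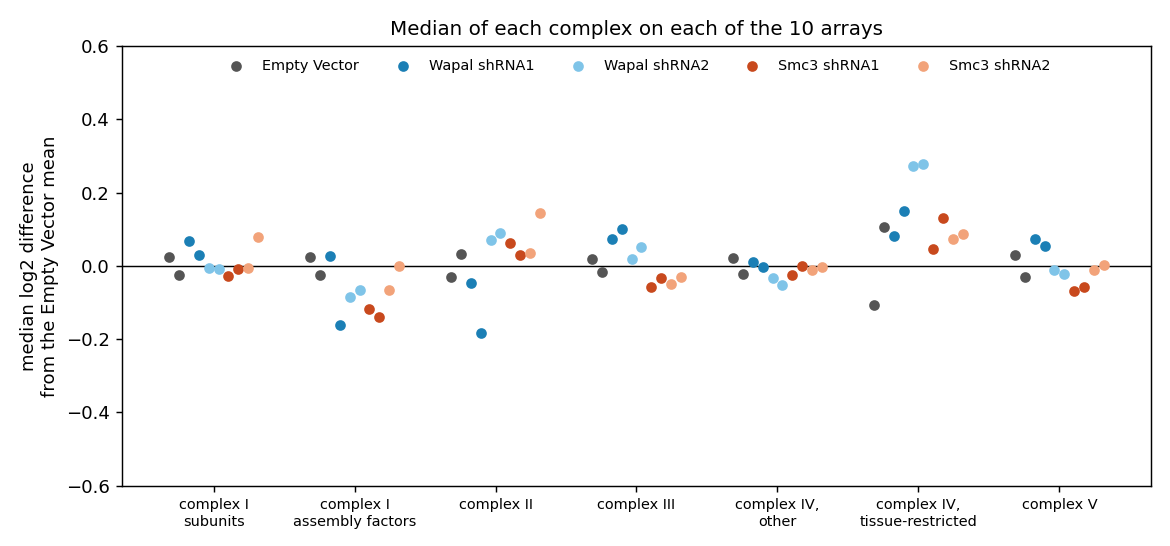
Median over the genes of each complex of the log2 difference from the Empty Vector mean (y axis) on each of the 10 arrays (points, coloured by group). All medians lie between -0.18 and 0.28, with the highest for the tissue-restricted forms of complex IV with Wapal shRNA2.

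With so few calls, the values that were farthest from 0 with Wapal depletion are given without a claim of change. They were Ndufa4l2 (0.42), Cox8c (0.31) and Cox7b2 (0.25) upward. Downward, beside Cox7a1, they were the assembly factor Ndufaf2 (-0.37, 95% interval -0.63 to -0.12, adjusted p = 0.0892) and the accessory subunit Ndufb10 (-0.28, 95% interval -0.51 to -0.05, adjusted p = 0.145). With Smc3 depletion the next upward value was that of Cox6b2 (0.47). Of the 92 further probe sets of these genes, 24 of them dim, 2 fell with Wapal depletion, a dim one of Ndufa10 (-0.45) and one of Ndufs4 (-0.52), where the brightest probe sets gave -0.08 and 0.21. With Smc3 depletion 1 rose, a dim one of Ndufab1 (0.59, against 0.01 on the brightest), and 1 fell, the other probe set of Ndufa5. Of all genes, each by its brightest probe set, 2.63% rose and 4.93% fell with Wapal depletion, and 6.08% rose and 3.94% fell with Smc3 depletion. Between the depletions 11 of the 92 further probe sets were higher and 8 lower with Wapal depletion (all genes 7.66% and 14.8%). Between the Smc3 shRNAs 1 rose and 7 fell (all genes 7.87% and 4.63%). Between the Wapal shRNAs 0 rose and 1 fell, that of Cox6c (all genes 0.434% and 1.02%).

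Wapal and Smc3 depletion were set against each other directly, a comparison in which the Empty Vector arrays enter the estimate of spread and not the difference. Of the 92 genes 7 were higher with Wapal depletion (background 7.66%) and 4 were lower (background 14.8%), with a median of 0.04 (all genes 0.01). As shares these were 7.61% and 4.35%. The reading of the higher share depended on the setting, since with an offset of 16 it was 17.4% against 9.25% of all genes, and with dim probe sets left out 17.0% against 13.9%. The lower share was 10.9% against 17.2% and 11.4% against 29.6% in these settings. All but 1 of the 95% intervals, 91 of 92, lay within 1.5-fold. The largest difference was that of Ndufa5 (0.44 ± 0.08, SE, n = 4 against 4, limma adjusted p = 0.00331), followed by Uqcrq, a small subunit of complex III (0.36 ± 0.07, adjusted p = 0.00405). Uqcrq had 3475 and 3453 with Empty Vector, 3712 to 4120 on the 4 Wapal arrays and 2902 to 3162 on the 4 Smc3 arrays. The depleted groups thus lay on either side of Empty Vector without overlap, while neither difference from Empty Vector passed (0.18 and -0.18). Ndufaf5 (0.36), Cox7c (0.33), the dim Ndufb4 (0.31), the iron-sulfur subunit Ndufs8 (0.26) and Ndufb2 (0.25) were also higher with Wapal depletion.

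Among the genes lower with Wapal than with Smc3 depletion, Ndufv3, an accessory subunit of the NADH dehydrogenase module, had 4008 and 4063 with Empty Vector, 3814 to 4004 on the Wapal arrays and 4517 to 5638 on the Smc3 arrays. The Smc3 arrays stood above all others, and the difference was -0.35 ± 0.07 (SE, n = 4 against 4, limma adjusted p = 0.00911). Sdha, the flavoprotein of complex II, had 1405 to 1790 on the Wapal arrays and 1704 to 2049 on the Smc3 arrays (-0.24, adjusted p = 0.0344). The calls of Ndufa5, Ndufaf5, Cox7c and Ndufv3 held under all 16 alternatives, and that of Uqcrq under all but the mean over its 4 probe sets (0.19, adjusted p = 0.0844). Those of Ndufb2, Ndufb4, Ndufs8, Sdha, Atp5l and Cox6c were each lost without 5 or more of the 8 shRNA arrays in turn, for Sdha without each of the 8 (adjusted p up to 0.153). With the mean over probe sets Sdha stood at -0.12 (adjusted p = 0.248) and Ndufb2 at 0.16 (adjusted p = 0.156). Ndufb4 stood at 0.13 with an offset of 16 (adjusted p = 0.0857) and at 0.25 with quantile normalization repeated (adjusted p = 0.0891).

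**Figure D4:**
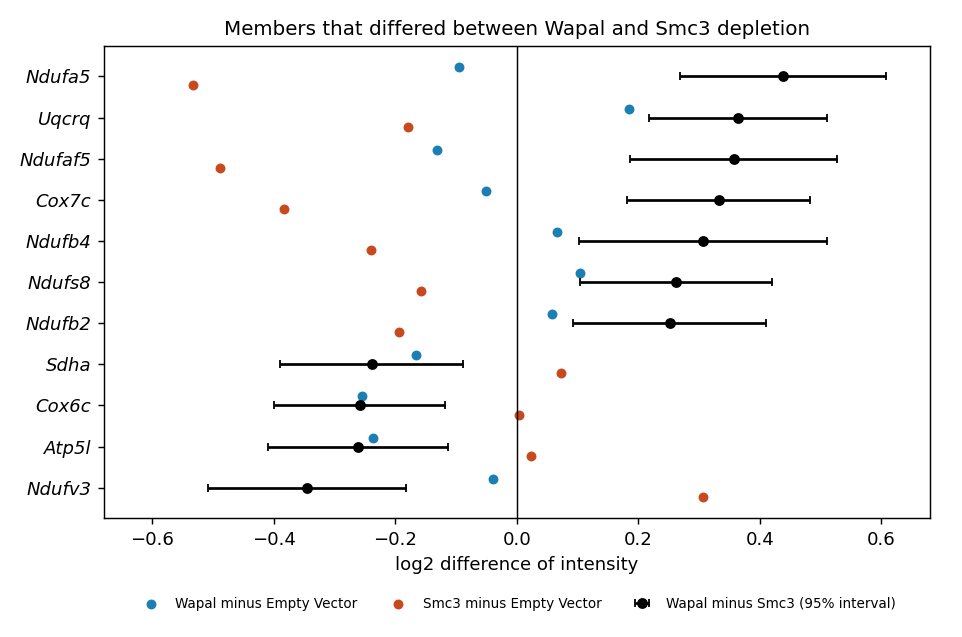
Log2 difference between Wapal and Smc3 depletion (black, with 95% interval) of the 11 genes that passed, with each depletion against Empty Vector (blue, Wapal; red, Smc3). Ndufa5 has the largest difference (0.44), with -0.10 for Wapal and -0.53 for Smc3.

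Cox6c and Atp5l, small membrane subunits of complexes IV and V, were low with Wapal shRNA1 alone. Cox6c had 6050 and 5876 with Wapal shRNA1, against 9357 and 9432 with Wapal shRNA2, 8968 and 8893 with Empty Vector, and 8725 to 9226 with the Smc3 shRNAs. On its other probe set the shRNA1 arrays had 2377 and 2379 and the other 8 arrays 2917 to 3751. Between the Wapal shRNAs Cox6c differed by -0.66 ± 0.10 (SE, n = 2 against 2, limma adjusted p = 0.0323) and by -0.57 on the other probe set (adjusted p = 0.0491). Atp5l had 4334 and 4498 with Wapal shRNA1 and 5944 to 6488 on the other 8 arrays, and between the shRNAs its difference of -0.51 ± 0.11 did not pass (limma adjusted p = 0.068). For both genes the arrays of Wapal shRNA1 overlapped no other array, whereas Wapl itself was lower with shRNA2. Without any one of the Wapal shRNA arrays the call of Cox6c was lost (-0.68, -0.63, -0.66 and -0.65, adjusted p 0.18 to 0.26). With 1 array left in an shRNA group, that array is assumed to vary like those of the other groups. The difference itself hardly moved, and why the call was lost was not tested.

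**Figure D5:**
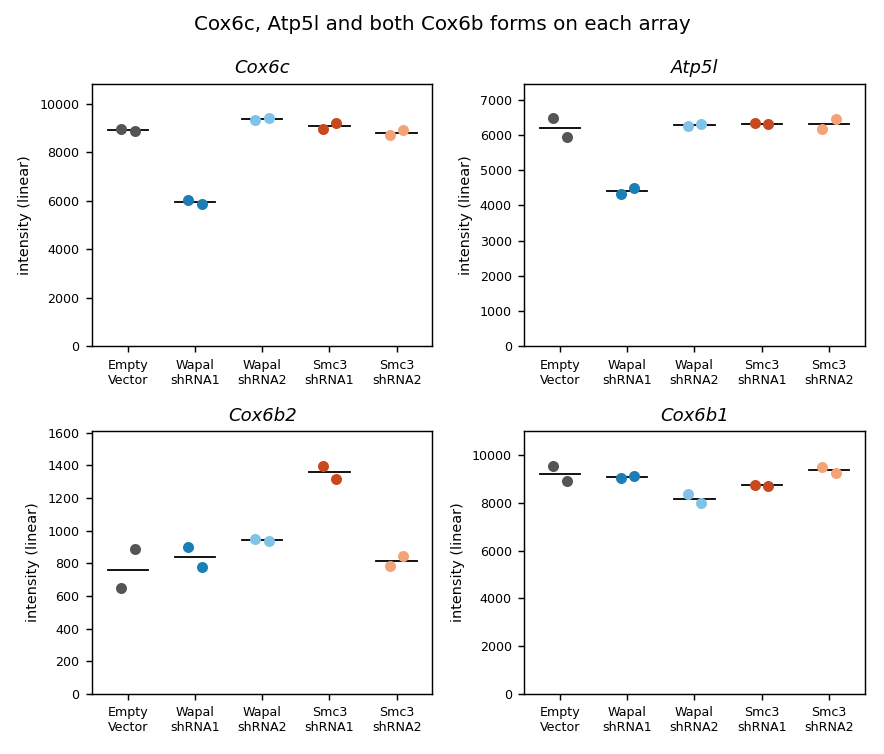
Intensity on a linear axis from 0 (y axis) on each of the 10 arrays (points) in the 5 groups, with a line at the geometric mean of its group, for Cox6c, Atp5l, Cox6b2 and Cox6b1. Cox6c has 6050 and 5876 with Wapal shRNA1 and 8725 to 9432 elsewhere, and Cox6b2 is highest with Smc3 shRNA1 (1399 and 1316).

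In all, Wapal shRNA1 against shRNA2 gave 0 genes that rose (background 0.434%, 5 higher at an unadjusted p under 0.05 by limma) and 1 that fell, Cox6c (background 1.02%). Smc3 shRNA1 against shRNA2 gave 3 that rose (background 7.87%), Ndufa4l2, Cox6b2 and the assembly factor Ndufaf6, and 1 that fell (background 4.63%), Ndufa5. Ndufaf6 had 548 and 470 with shRNA1, 344 and 355 with shRNA2, and 496 and 536 with Empty Vector. It was thus low with shRNA2, with a difference between the shRNAs of 0.54 ± 0.12 (SE, n = 2 against 2, limma adjusted p = 0.024) that was lost without any one Smc3 array (0.43, 0.65, 0.51 and 0.56, adjusted p 0.055 to 0.178). These comparisons run along the sides, so the shRNA and the side cannot be told apart in them. Labels elsewhere in the study exchange Wapal shRNA1 replicate 2 with Wapal shRNA2 replicate 1, which would alter the Wapal shRNA comparison and leave the mean of both unaltered.

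Genes that build, supply or regulate the chain changed in single members. Of 48 measured assembly and import factors outside the 92 genes, 1 rose and 2 fell with Wapal depletion, and 2 rose and 2 fell with Smc3 depletion (medians -0.03 and -0.10). As shares, 2.08% rose and 4.17% fell with Wapal depletion (all genes 2.63% and 4.93%). With Smc3 depletion 4.17% rose and 4.17% fell (all genes 6.08% and 3.94%). The copper chaperones of complex IV assembly differed among themselves. Sco1, on a dim probe set, fell with Wapal depletion (-0.83 ± 0.11, limma adjusted p = 0.00995, held without each array). Sco2 rose (0.44 ± 0.09, adjusted p = 0.0193) and Cox17 fell (-0.40 ± 0.09, adjusted p = 0.0276) with Smc3 depletion. The other calls were the complex IV factor Coa7 (-0.42) and the complex V factor Tmem70 (0.42) with Wapal depletion, and the import receptor Chchd4 (-0.35) and the complex II factor Sdhaf3 (0.37) with Smc3 depletion. All of these calls other than that of Sco1 were lost without 5 or 6 of the 6 arrays in turn (adjusted p up to 0.184).

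Of 27 nuclear regulators of mitochondrial biogenesis and mitochondrial DNA expression, 0 rose and 3 fell with Wapal depletion (11.1%, all genes 4.93%). With Smc3 depletion 0 rose and 2 fell (7.41%, all genes 3.94%). The shares of all genes that rose were 2.63% and 6.08%. The list had medians of -0.08 and -0.13, and at an unadjusted p under 0.05 by limma, 2 were higher in each. Pprc1, a coactivator related to PGC-1, had 476 and 512 with Empty Vector against 251 to 332 on the 4 Wapal arrays, without overlap (-0.78 ± 0.10, limma adjusted p = 0.00928, held without each array), and with Smc3 depletion it stood at -0.27 (adjusted p = 0.292). The mitochondrial transcription factor family members Mterf1a (-0.51 ± 0.09 with Wapal depletion, adjusted p = 0.0211) and Mterf2 (-0.54 ± 0.10 with Smc3 depletion, adjusted p = 0.0179) fell, and these calls were lost without 5 and 4 of the arrays in turn. Esrrb, an orphan receptor that is also a pluripotency factor and is counted in both lists, fell in both (-0.66 ± 0.11 and -0.77 ± 0.13, adjusted p = 0.0175 and 0.00913), and without 4 of 6 arrays in turn its call with Wapal depletion was lost (adjusted p up to 0.0668). Among the 10 pluripotency markers, 1 rose and 2 fell with Wapal depletion, and 0 rose and 4 fell with Smc3 depletion (1 higher at an unadjusted p under 0.05). Beside Esrrb, the reprogramming factor Klf4 fell in both (-0.76 and -0.79, adjusted p = 0.0104 and 0.0043), and Nanog fell with Smc3 depletion (-0.71, adjusted p = 0.003), all 3 calls held without each array. The growth factor Fgf4 rose with Wapal depletion (0.50, adjusted p = 0.0481) and Zfp42, also called Rex1, fell with Smc3 depletion (-0.44, adjusted p = 0.0282), and each was lost without 5 of 6 arrays in turn. Among 7 fibroblast markers 1 rose (the dim Dcn) and 1 fell (Thy1) in each, which is 14.3% in either direction. Of all genes, 2.63% rose and 4.93% fell with Wapal depletion, and 6.08% rose and 3.94% fell with Smc3 depletion. Without single arrays, the call of Dcn was lost in 6 of 6 cases with Wapal depletion and 4 of 6 with Smc3 depletion, and that of Thy1 in 4 of 6 with Wapal depletion and 0 of 6 with Smc3 depletion. The sums of the fibroblast markers were 271 to 307 with Empty Vector, 214 to 247 with the Wapal shRNAs and 205 to 223 with the Smc3 shRNAs.

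In the TCA cycle and pyruvate supply list, 24 genes were measured, of which 2 rose and 0 fell with Wapal depletion (1 lower at an unadjusted p under 0.05) and 1 rose and 1 fell with Smc3 depletion. As shares, 8.33% rose and 0% fell with Wapal depletion (all genes 2.63% and 4.93%). With Smc3 depletion 4.17% rose and 4.17% fell (all genes 6.08% and 3.94%). Mpc1, a subunit of the mitochondrial pyruvate carrier, passed in both depletions in opposite directions. It had 1106 and 972 with Empty Vector, 1753 and 1658 with Wapal shRNA1, 1460 and 1439 with Wapal shRNA2, 821 and 883 with Smc3 shRNA1, then 587 and 542 with Smc3 shRNA2. The 3 conditions did not overlap. Mpc1 rose by 0.60 ± 0.10 with Wapal depletion (limma adjusted p = 0.0161) and fell by 0.58 with Smc3 depletion (SE 0.10, adjusted p = 0.0111), and the depletions differed by 1.18 (adjusted p = 1.43e-05). Without single arrays these calls were lost in 4 and 2 of 6 cases (adjusted p up to 0.0661). Pdk3, another pyruvate dehydrogenase kinase, rose with Wapal depletion (0.56 ± 0.10, adjusted p = 0.0224), a call lost without 5 of 6 arrays in turn (adjusted p up to 0.104). Pdk1 is described above.

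Of 76 genes of the mitochondrial ribosome, which translates the subunits encoded in mitochondrial DNA, 0 rose and 2 fell with Wapal depletion (limma; 2 higher at an unadjusted p under 0.05), and 1 rose and 4 fell with Smc3 depletion. The share that fell was 2.63% with Wapal depletion (all genes 4.93%) and 5.26% with Smc3 depletion (all genes 3.94%). The share that rose was 0% and 1.32%, against 2.63% and 6.08% of all genes. The medians were -0.03 and -0.13, and with Smc3 depletion 26 of 76 were lower and 3 higher at an unadjusted p under 0.05. At that threshold 25.3% of all genes passed with Smc3 depletion, both directions together. Those that fell with Smc3 depletion were Mrpl46 (-0.45), Mrpl55 (-0.44), Mrpl40 (-0.43) and Mrps15 (-0.41), and Mrps24 rose (0.35). With Wapal depletion Mrps12 (-0.39) and Mrps9 (-0.38) fell. Each of these calls was lost without at least 5 of 6 arrays in turn (adjusted p up to 0.201). Set against each other, 17 genes of the mitochondrial ribosome (22.4%, all genes 7.66%) were higher with Wapal than with Smc3 depletion and 4 (5.26%, all genes 14.8%) were lower, with a median of 0.11 (all genes 0.01). With Smc3 shRNA1 against shRNA2, 0 rose (all genes 7.87%) and 5 fell (6.58%, all genes 4.63%), with a median of -0.12. This comparison runs along the sides, and 19 of the 76 genes were higher on Empty Vector replicate 2 than on replicate 1 (median -0.06). The summed intensity was 114815 to 117502 with Smc3 shRNA1 and 122941 to 129653 with Smc3 shRNA2. With Empty Vector it was 127481 to 134092, which overlapped Smc3 shRNA2. Within the sides the medians were -0.17 for Smc3 shRNA1 and -0.09 for Smc3 shRNA2.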

How the data were processed

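RNA of 10 samples, 2 in each of 5 groups, was measured on Affymetrix arrays, 1 per sample. The deposited values are linear intensities of probe sets, made by the authors with RMA (submitters' processing notes, version not given in the sources used here). RMA fits the background and equalises the distributions of the arrays, so a shift common to most genes would not be seen, and the number of arrays limits the precision. The median intensity per array was 38.6 to 39.7.

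Groups followed the GEO labels. Control probe sets (64) were left out, and the other 45037 were taken to log2 and tested with limma 3.58.1 in R 4.3.3 (lmFit and eBayes, 1 mean per group, Benjamini-Hochberg over all probe sets tested, threshold 0.05). Each depletion was fitted on its own 6 arrays, and the difference between them on all 10. A depletion is the mean of both its shRNA groups, so disagreement between the shRNAs does not enter the SE or the p-value. Shares of all genes were taken over 18193 genes with 1 symbol, each by its brightest probe set (GEO platform annotation). Tables and plots were made with Python 3.11.15, pandas 2.3.3, numpy 2.4.6 and matplotlib 3.10.9, and the fits were tested on simulated data. A probe set was called dim under a mean log2 of 6. The genes, lists and alternatives were chosen with earlier results of these data known.

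Genes were named where they passed in a comparison (up to 12 in each direction), belonged to a pair of forms, were the brightest of a class or among the 3 with the largest difference between the Empty Vector arrays. Where under 3 passed in a direction, the 3 farthest values were named. For other lists up to 4 in each direction were named. Sco1, Sco2, Cox17 and the other assembly and import factors, 27 nuclear regulators, 24 TCA cycle genes, 76 genes of the mitochondrial ribosome, 24 genes of glycolysis and low oxygen, and markers of stem cells, fibroblasts, muscle and germ cells formed those lists.

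The alternatives were the replicate number as a block, an offset of 16 before the log, quantile normalization repeated, dim probe sets left out, all 10 arrays (or the 8 shRNA arrays) in the model, the mean over the probe sets of a gene, a term for the side of the arrays, and each array left out in turn.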

Additional observations from a re-analysis of the deposited data

Results flagged for a closer look

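The following differences passed a limma test of the difference itself, either between the depletions or between the shRNAs of a target. Wapal minus Smc3 depletion gave 0.44 for Ndufa5, 0.36 for Uqcrq, 0.36 for Ndufaf5, 0.33 for Cox7c, 0.31 for the dim Ndufb4, 0.26 for Ndufs8 and 0.25 for Ndufb2. It gave -0.35 for Ndufv3, -0.26 for Atp5l, -0.26 for Cox6c and -0.24 for Sdha. Of these, Atp5l and Cox6c were low with Wapal shRNA1 alone, and for Cox6c the Wapal shRNA2 arrays lay above the Smc3 arrays. For Ndufs8 the other 5 probe sets lay on the same side of 0. Wapal shRNA1 minus shRNA2 gave -0.66 for Cox6c. Smc3 shRNA1 minus shRNA2 gave 0.79 for Ndufa4l2, 0.74 for Cox6b2, -0.73 for Ndufa5 and 0.54 for Ndufaf6. No group had the 4 samples needed to test for a sample far from the others.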

How the results depend on the processing

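No called gene turned direction, and no median over all 92 genes moved beyond the spread between replicates, although that of Smc3 depletion, near 0, changed sign (up to 0.02 with quantile normalization repeated). Medians of single complexes lay near 0 and turned sign under some settings, among them the complex I assembly factors with Wapal depletion (0.01 with quantile normalization repeated) and the tissue-restricted forms with Smc3 depletion (-0.00 with the mean over probe sets). Among values for single genes under the alternatives, 227 kept their side of the threshold and 98 no longer passed. With an offset of 16, 2 genes rose (2.17%, all genes 3.51%) and 2 fell (2.17%, all genes 7.53%) with Wapal depletion. In that setting 16 were higher (17.4%, all genes 9.25%) and 10 lower (10.9%, all genes 17.2%) with Wapal than with Smc3 depletion. There 2 were lower with shRNA1 than with shRNA2 of Wapal (2.17%, all genes 1.43%) and 4 of Smc3 (4.35%, all genes 6.67%). Leaving out dim probe sets leaves fewer tests to adjust for, and shares of all genes are then over 9689 genes. There 2 rose (2.27%, all genes 6.34%) and 3 fell (3.41%, all genes 15.3%) with Wapal depletion. With Smc3 depletion 4 rose (4.55%, all genes 12.6%). Between the depletions 15 were higher (17.0%, all genes 13.9%) and 10 lower (11.4%, all genes 29.6%). Between the Wapal shRNAs 1 rose (1.14%, all genes 2.74%) and 3 fell (3.41%, all genes 4.0%), and between the Smc3 shRNAs 3 fell (3.41%, all genes 11.9%). With all 10 arrays in the model 1 rose (1.09%, all genes 4.47%) and 2 fell (2.17%, all genes 7.53%) with Wapal depletion. Between the Wapal shRNAs 1 rose (1.09%, all genes 1.51%) and 3 fell (3.26%, all genes 2.73%), and between the Smc3 shRNAs 3 fell (3.26%, all genes 6.38%). In the model of the 8 shRNA arrays 7 were lower with Wapal than with Smc3 depletion (7.61%, all genes 15.9%), as many as with the mean over probe sets. Quantile normalization repeated gave 2 that fell between the Smc3 shRNAs (2.17%, all genes 5.24%). The cause of these changes in the counts was not tested.

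Replicate numbers did not pair the samples (correlations of replicate differences between groups from -0.27 to 0.16). With the replicate block 0 genes fell between the Wapal shRNAs (Cox6c, adjusted p = 0.0502), Cox7c no longer passed with Smc3 depletion (adjusted p = 0.0555), and neither did Ndufb2 (0.0516), Ndufb4 (0.0591) and Sdha (0.0518) between the depletions.

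With each array left out in turn, 0 to 1 genes rose and 0 fell with Wapal depletion, and 0 to 3 rose and 1 to 3 fell with Smc3 depletion. Between the depletions 4 to 7 rose and 1 to 7 fell. Between the Wapal shRNAs 0 to 1 rose and 0 to 3 fell, and between the Smc3 shRNAs 0 to 3 rose and 0 to 2 fell. The term for the side of the arrays was fitted for each depletion against Empty Vector and left these counts within 1.5 times.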
